A study of Mus musculus with 12 samples.

Results

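The 9 genes described here make, move or sense prostaglandins, and they were taken by symbol from the 13233 genes listed for 12 RNA-Seq samples of hernia-associated fibroblasts (HAFs). They are the prostaglandin transporter Slco2a1, the cyclooxygenases Ptgs1 and Ptgs2, the terminal synthases Ptges, Ptges2, Ptges3 and Ptgis, the receptor Ptger4 and the exporter Abcc4, and all 9 were listed. Slco2a1 was on the list because of its difference between the E2 and the E2 plus fulvestrant samples, so that difference and every other one that uses those samples is given for it as a description with no test. Its remaining comparison, fulvestrant against vehicle, was tested.

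HAFs are primary skeletal muscle fibroblasts, here from the lower abdominal muscle (LAM) of Aromhum mice, which carry the human aromatase gene and develop inguinal hernias. Every sample had the Aromhum genotype, so the vehicle group was not a wild-type control. The 4 groups of 3 samples were vehicle (ethanol and DMSO), 10 nM E2 (estradiol), 10 nM E2 with 100 nM fulvestrant, and 100 nM fulvestrant without E2, each for 48 hours in medium with a little charcoal-stripped serum. Fulvestrant is an antagonist of the estrogen receptors that also leads to their degradation. The labels number the samples of each group 1 to 3 and do not say whether these were separate cultures or animals, nor give the age of the mice. If they were not separate, the p-values measure only the spread between these samples, which may be technical. In bulk RNA, fewer cells of a kind and less RNA per cell cannot be told apart.

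Prostaglandins are short-lived lipid signals made from membrane arachidonic acid. The cyclooxygenases, one mostly constitutive (Ptgs1) and one inducible (Ptgs2), convert arachidonic acid to PGH2, and terminal synthases turn it into PGE2 or prostacyclin. Abcc4 can carry prostaglandins out of the cell, receptors such as Ptger4 sense them, and Slco2a1 takes them back up for breakdown. In fibroblasts PGE2 is known for restraining collagen synthesis and proliferation.

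Reads on listed genes numbered 18827792 to 44040507 per sample, and a gene was listed only if it had at least 10 reads in every sample. All 9 fibroblast markers examined (Pdgfra, Pdgfrb, Col1a1, Col1a2, Col3a1, Dcn, Lum, Thy1 and Esr1) were listed. None of 7 endothelial, 5 mast cell, 4 mesothelial or 4 adipocyte markers was listed, which means under that filter and not 0. Of other cell types, 3 of 8 leukocyte, 1 of 8 myogenic and 3 of 5 smooth muscle and pericyte markers were listed. The summed normalized counts of the 9 fibroblast markers differed by treatment, at 441148 to 494592 with vehicle, 508043 to 566637 with E2, 363066 to 376933 with E2 plus fulvestrant and 330723 to 395080 with fulvestrant. In fulvestrant against vehicle 2 of the 9 were called (limma), both lower, when 5.23% of all genes were called. Lum, a collagen-binding proteoglycan, differed by -1.18 (adjusted p = 0.00653, and 0.978 without the replicate block described below) and Esr1, estrogen receptor alpha, by -1.46 (adjusted p = 0.00757, and 0.719 without it). The part of these levels in the results below was not tested. Replicate 1 stood apart from replicates 2 and 3 in all 4 groups: the first principal component, with 70.8% of the variance, placed the 4 samples numbered 1 between -60.5 and -43.5 and the other 8 between 15.1 and 35.6. Deviations from the group means were most alike between the samples numbered 1 (correlation across genes 0.842 to 0.923 in 6 pairs from different groups). Samples sharing number 2 or 3 had correlations of 0.631 to 0.795, and samples numbered 2 paired with those numbered 3 had as much, 0.632 to 0.792, so the numbers set replicate 1 apart and do not tell 2 from 3. The replicate number was in the fit as a block of 3 levels, and values without it, and for a block that separates only replicate 1, are given beside the calls. What the number stands for is not given in the sources used here.

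Slco2a1 was highest with E2. This transporter, on chromosome 9 (GRCm38 chr9:102988712-103096002, + strand, 18 exon blocks), had normalized counts of 59.6, 156 and 175 in vehicle replicates 1, 2 and 3. With E2 the counts were 339, 468 and 409.8. With E2 plus fulvestrant they were 89.6, 89.8 and 78.2, and with fulvestrant alone 111, 79.4 and 63.2. Each E2 sample lay above all 9 others, a separation that the choice of the gene partly fixed, and the vehicle, E2 plus fulvestrant and fulvestrant groups overlapped.

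In order of group means, E2 (406 ± 64.5, SD, n = 3) was followed by vehicle (130.2 ± 62.0), E2 plus fulvestrant (85.9 ± 6.63) and fulvestrant (84.5 ± 24.2). The vehicle group was the widest relative to its mean, because replicate 1 lay far below the other two. E2 minus E2 plus fulvestrant, the contrast that chose the gene, was 2.22 on the log2 scale (SE 0.14), or 4.65-fold. Between same-numbered samples that difference was 1.91, 2.37 and 2.37. E2 minus vehicle was 1.76 (SE 0.22) and varied more between the numbers, with 2.49, 1.58 and 1.22. The replicate with the least Slco2a1 in vehicle thus had the largest difference with E2. All these differences, and those below, are on the log2(normalized count + 1) scale, which understates changes of low genes.

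**Figure D1:**
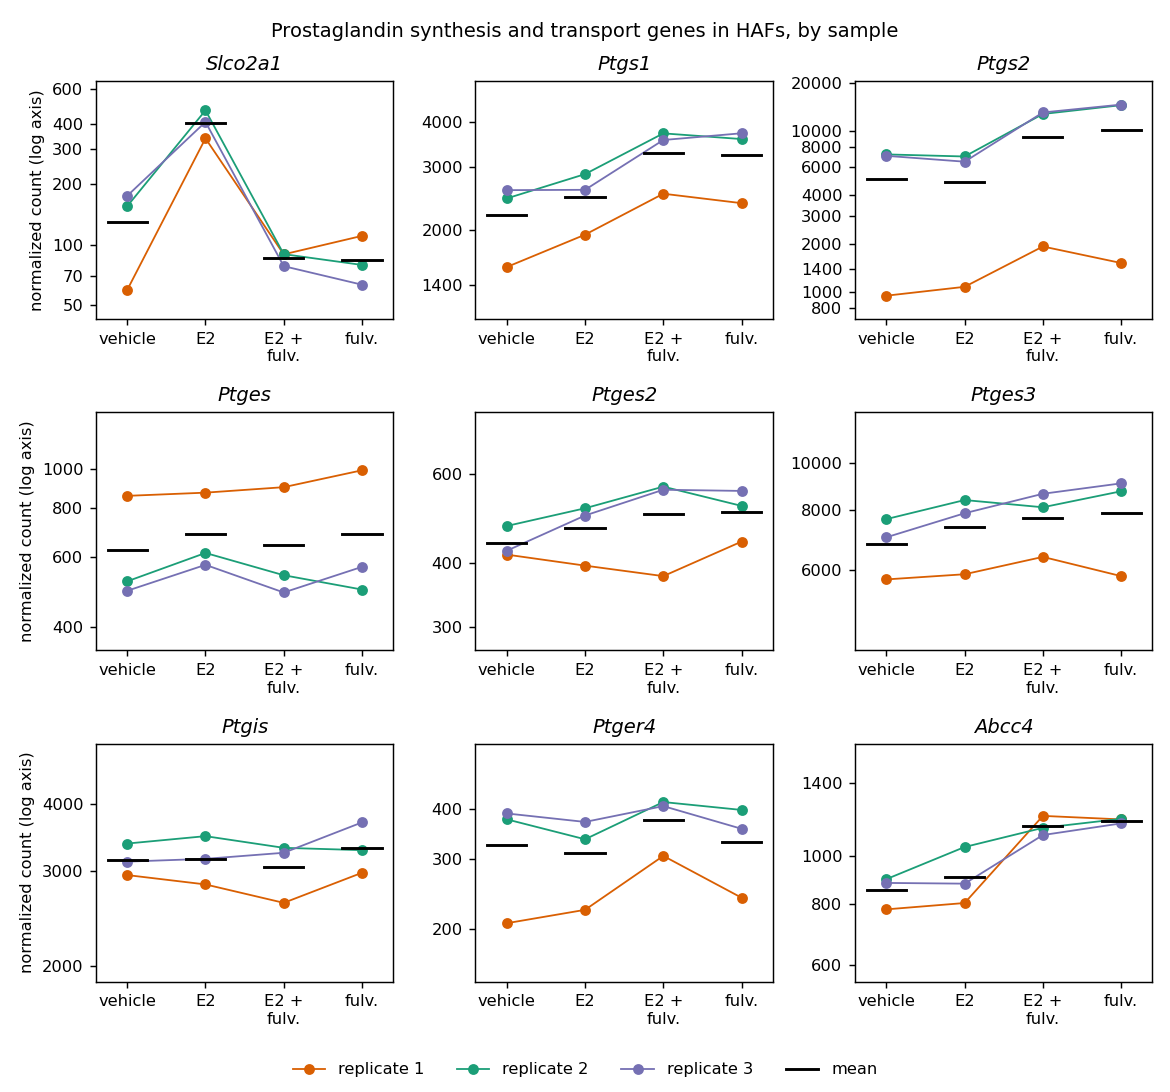
Normalized counts of the 9 genes (log axis) in each of the 12 samples, by treatment; lines join same-numbered samples and black bars are group means. Slco2a1 peaks in the 3 E2 samples (339 to 468), whereas Ptgs1, Ptgs2 and Abcc4 are higher in both fulvestrant groups within each replicate number, and Ptgs2 is far lower in replicate 1 throughout.

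Without added E2, fulvestrant gave no consistent Slco2a1 difference across the 3 pairs. Fulvestrant minus vehicle was -0.51 (SE 0.41, 95% interval -1.49 to 0.46), with an adjusted p of 0.525 in limma. Replicates 2 and 3 were lower with fulvestrant by differences of -0.96 and -1.46, and replicate 1 was higher, by 0.88. Without replicate 1 the difference was -1.21 and passed the test (limma adjusted p = 0.0012, when 16.7% of all genes were called). E2 plus fulvestrant was close to fulvestrant alone for this gene, with a difference of 0.06 (SE 0.18, interval -0.33 to 0.45). The fulvestrant difference with E2 minus that without it was -1.71 (SE 0.48), given without a test because it uses the samples that chose the gene.

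The RefSeq promoter window of Slco2a1 (250 bases before to 50 after the start, GRCm38.p6 chr9:103008237-103008536, + strand) is shown because this gene had the largest E2 difference of the 9. Capitals mark every match to the motifs searched on both strands. The half-site of the estrogen response element was searched as GGTCA, and the full element as that half-site and its reverse complement with 3 bases between, so that every full element also holds half-sites. The GC box was searched as GGGCGG, and the TATA box as TATAAA. The half-site of the cAMP response element was searched as TGACG, the AP-1 site as TGACTCA, and one form of the E-box as CACGTG.
Slco2a1: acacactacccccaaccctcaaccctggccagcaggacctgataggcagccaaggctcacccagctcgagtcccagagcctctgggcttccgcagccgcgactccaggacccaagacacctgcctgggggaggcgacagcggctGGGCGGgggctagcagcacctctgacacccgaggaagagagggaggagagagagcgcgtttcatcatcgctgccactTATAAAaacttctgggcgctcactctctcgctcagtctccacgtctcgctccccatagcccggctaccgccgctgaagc
It held a GC box starting at position -106 and a TATA box at -29 from the start, and neither the estrogen response element nor its half-site. These letters say nothing about binding elsewhere, and this start lies 19775 bases inside the longest gene model. Of all 32851 mouse promoter windows, 13.6% hold TATAAA, 35.7% GGGCGG, 40.5% GGTCA and 0.07% the full element.

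Both cyclooxygenase genes and the exporter gene were higher with fulvestrant than with vehicle. In fulvestrant against vehicle, 3 of the 9 genes were called (limma, adjusted p under 0.05 and fold over 1.2), Ptgs2, Ptgs1 and Abcc4, all higher, and 6 were not. Of all 13233 genes 5.23% were called in that comparison, and 2.74% of all genes were called higher. The median difference of the 9 was 0.19, against 0.01 over all genes. With the replicate number left out of the model, none of the 9 was called, nor was any gene (706 genes, 5.34%, had an unadjusted p under 0.05, and so had 1 of the 9). A block that separates only replicate 1 from the others, tried after the data were seen, called the same 3 genes in a fit that called 10.3% of all genes.

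Ptgs2, the inducible cyclooxygenase, had 955, 7181 and 7036 normalized counts in vehicle replicates 1, 2 and 3 and 1523, 14506 and 14625 with fulvestrant. The groups overlapped because replicate 1 was so low in both, but every same-numbered pair was higher with fulvestrant, by 1.59-, 2.02- and 2.08-fold. The difference was 0.91 (SE 0.09, limma adjusted p = 0.00566), or 1.88-fold. Ptgs1, the constitutive cyclooxygenase, had 1576, 2452 and 2586 counts with vehicle and 2378, 3593 and 3730.0 with fulvestrant. Its pairs differed by nearly the same factor, 1.51, 1.47 and 1.44, for a difference of 0.56 (SE 0.07, limma adjusted p = 0.00854).

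Abcc4, the exporter also known as MRP4, had 779, 896 and 880.4 counts with vehicle and 1183, 1186 and 1161 with fulvestrant. Here the groups did not overlap, as for 5.70% of all genes in that direction. The difference was 0.47 (SE 0.08, limma adjusted p = 0.0267), with 1.52-, 1.32- and 1.32-fold in pairs 1, 2 and 3, the largest in replicate 1. Without the replicate block the adjusted p was 0.978 for both cyclooxygenases and 0.355 for Abcc4. With 1 replicate number left out, leaving 2 pairs, the 3 differences kept their sign, but none of the 3 was called without replicate 2 or without replicate 3. The limma adjusted p was then 0.0505 and 0.0700 for Ptgs2, 0.0907 and 0.0727 for Ptgs1 and 0.177 and 0.128 for Abcc4. The shares of all genes called in these 2 fits are not given here. Without replicate 1 all 3 were called, as was Ptges3 (difference 0.28, adjusted p = 0.0449) beside Slco2a1, in a fit that called 16.7% of all genes. With no variance trend none of the 3 was called, with a limma adjusted p of 0.0578 for Ptgs2, 0.0680 for Ptgs1 and 0.0964 for Abcc4. The share of all genes called in that fit is not given either.

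**Figure D2:**
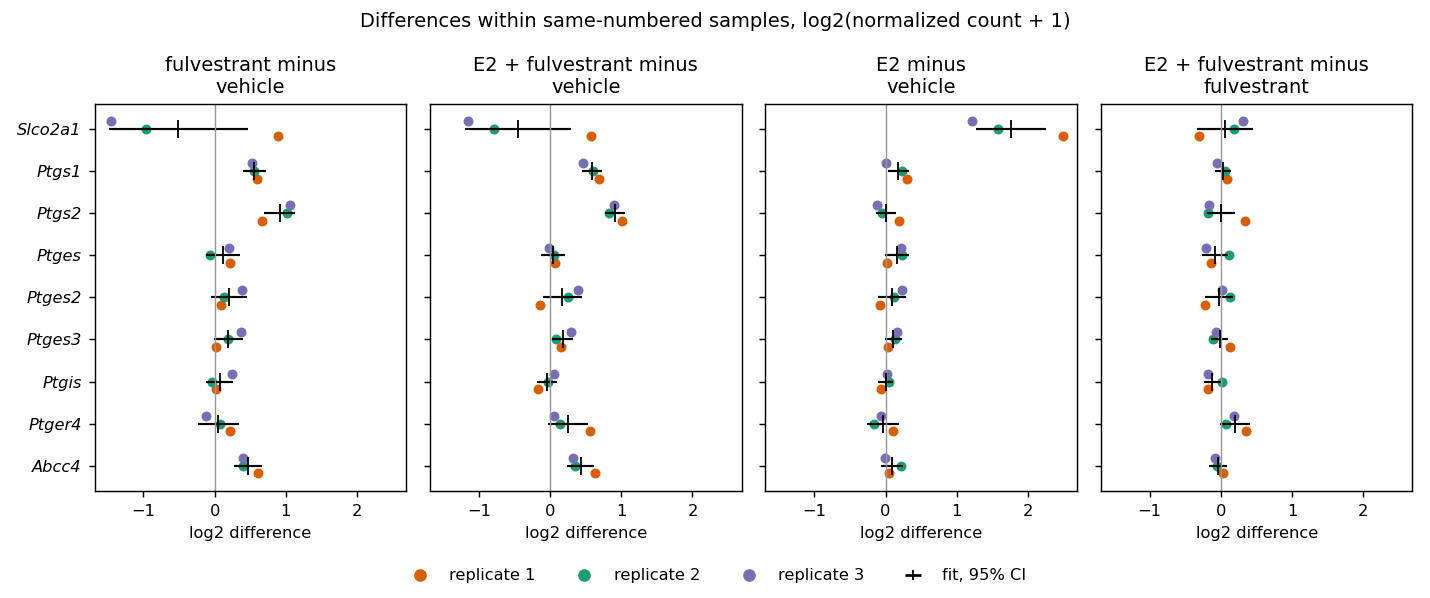
Log2 differences of the 9 genes in 4 comparisons; coloured points are the 3 same-numbered pairs, and black marks with bars are the fitted difference and its 95% interval (for Slco2a1 a description in all but the first panel). Ptgs1, Ptgs2 and Abcc4 lie right of 0 in every pair of both left panels (Ptgs2 0.91 in each). In the right panels their fitted differences lie between -0.04 and 0.18, with single pairs up to 0.34, and Slco2a1 differs by 1.76 with E2.

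The same 3 genes were higher with E2 plus fulvestrant than with vehicle. That comparison shares its vehicle samples with the previous one, so the values stand side by side and neither is a check of the other. Of the 8 genes tested, 3 were called, all higher, while 12.2% of all genes were called and 6.72% were called higher. Ptgs2 had 1928, 12789 and 13072 counts with E2 plus fulvestrant, a difference from vehicle of 0.91 (SE 0.06, limma adjusted p = 5.84e-04). Ptgs1 had 2527, 3728 and 3571 counts, a difference of 0.58 (SE 0.06, limma adjusted p = 0.00236). These calls for both cyclooxygenases held with each replicate number left out, with adjusted p values up to 0.0272.

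Abcc4 had 1202, 1137 and 1099.9 counts with E2 plus fulvestrant, all above the vehicle samples, as for 7.66% of genes in that direction. Its difference was 0.43 (SE 0.08, limma adjusted p = 0.0161). It was not called without replicate 2 (0.0578), without replicate 3 (0.0762) or with no variance trend (0.083). Without the replicate block none of the 8 was called (adjusted p 0.901 for Ptgs2, 0.702 for Ptgs1 and 0.291 for Abcc4), and 3 of all genes (0.0227%) were. With a block that separates only replicate 1 the same 3 were called, among 15.3% of all genes. Slco2a1 differed from vehicle by -0.45 (SE 0.32), with pairs of 0.58, -0.79 and -1.16, the same mixed signs as with fulvestrant alone.

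For the other 8 genes no difference between E2 and vehicle passed the test. None of them was called in E2 against vehicle (limma), where 0.431% of all genes were called, and 1 of the 8, Ptgs1, had an unadjusted p under 0.05. Ptgs2 had 1084, 6971 and 6471 counts with E2, and its difference was 0.01 with a 95% interval of -0.14 to 0.15. This interval, from the fit with the replicate block, lies well below the difference of 0.91 seen with fulvestrant. Without the block the SE was 1.06, against 0.06 with it, so the narrow interval depends on the block. For Ptgs1, with 1941, 2867 and 2591 counts, the difference was 0.18 (interval 0.03 to 0.32, limma adjusted p = 0.288). Abcc4 had 802, 1040.4 and 877 counts, a difference of 0.08 (interval -0.07 to 0.24). Across the 8 the differences ran from -0.04 in Ptger4 to 0.18 in Ptgs1. Without the replicate block no gene was called, and 132 had an unadjusted p under 0.05, none of the 8 among them.

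When fulvestrant was present, adding E2 moved none of the 8 past the test. In E2 plus fulvestrant against fulvestrant, limma called 0% of all genes, with 516 genes (3.90%) and 1 of the 8, Ptgis, at an unadjusted p under 0.05. The difference was 0.00 for Ptgs2 (interval -0.20 to 0.19), 0.03 for Ptgs1 (interval -0.08 to 0.13) and -0.04 for Abcc4 (interval -0.17 to 0.09). These intervals also come from the fit with the replicate block, and the SE for Ptgs2 was 0.09 with it and 1.16 without it. The Ptgs2 pairs did not go one way: replicate 1 was higher with E2 plus fulvestrant by 0.34, and replicates 2 and 3 were lower, at -0.18 and -0.16. Without replicate 1 the Ptgs2 difference was -0.17 with an adjusted p of 0.0150 in limma, short of the 1.2-fold required.

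The effect of fulvestrant on these genes was compared with and without E2 in one model. No gene of all 13233 passed that interaction test (limma, 0%, with 501 genes at an unadjusted p under 0.05), and none of the 8 had an unadjusted p under 0.05. For Ptgs2 the 2 fulvestrant effects differed by -0.01 (interval -0.34 to 0.32), and for Ptgs1 by -0.15 (interval -0.33 to 0.03). These intervals leave room for differences in either direction, so equal effects are not shown.

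In the contrast that chose Slco2a1, E2 minus E2 plus fulvestrant, the other genes went the opposite way or stayed near 0, given here without tests. Ptgs2 was -0.91 (SE 0.05), Ptgs1 -0.41 (SE 0.05), Abcc4 -0.35 (SE 0.09) and Ptger4 -0.29 (SE 0.10). All 3 pairs were lower with E2 for each of these 4 genes (50% of all genes had all 3 pairs on one side). The remaining genes lay between -0.08 and 0.12. Of all genes 8.68% passed the thresholds in this contrast with the replicate block and 0.0605% without it.

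The promoter windows of the 3 genes that rose together with fulvestrant are shown for comparison with that of Slco2a1, with the same motifs in capitals. They lie at chr2:36230176-36230475 (Ptgs1, + strand), chr1:150099781-150100080 (Ptgs2, + strand) and chr14:118706170-118706469 (Abcc4, - strand) in GRCm38.p6.
Ptgs1: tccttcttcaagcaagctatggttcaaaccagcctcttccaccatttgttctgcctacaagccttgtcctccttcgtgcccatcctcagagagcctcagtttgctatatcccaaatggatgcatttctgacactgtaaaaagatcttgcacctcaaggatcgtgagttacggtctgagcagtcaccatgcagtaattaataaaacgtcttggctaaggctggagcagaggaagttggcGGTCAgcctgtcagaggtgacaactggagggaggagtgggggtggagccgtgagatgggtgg
Ptgs2: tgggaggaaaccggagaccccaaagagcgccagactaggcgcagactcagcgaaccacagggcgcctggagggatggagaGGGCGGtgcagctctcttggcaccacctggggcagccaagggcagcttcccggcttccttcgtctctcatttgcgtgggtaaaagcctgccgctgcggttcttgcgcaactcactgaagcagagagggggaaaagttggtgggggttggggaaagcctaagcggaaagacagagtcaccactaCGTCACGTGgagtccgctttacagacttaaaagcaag
Abcc4: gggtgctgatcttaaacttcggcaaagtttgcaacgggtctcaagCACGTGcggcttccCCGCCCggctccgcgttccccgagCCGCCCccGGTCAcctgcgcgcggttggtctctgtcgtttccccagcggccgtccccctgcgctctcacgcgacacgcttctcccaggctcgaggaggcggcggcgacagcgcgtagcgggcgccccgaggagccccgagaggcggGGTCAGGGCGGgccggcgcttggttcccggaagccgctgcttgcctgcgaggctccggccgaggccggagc
The Ptgs1 window held 1 GGTCA, at -12, and the Abcc4 window held 2, at -159 and -21. Ptgs2 held none, and had a GC box at -170 and, overlapping each other after the start, a TGACG on the opposite strand at 14 and a CACGTG at 17. No motif searched was in all 3 windows. RefSeq windows matched 8 of the 9 genes, with Abcc4 having another at a start 29288 bases inside the gene, and none of these 9 windows held the full estrogen response element.

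The terminal synthases did not pass the test in any of these comparisons. Ptges, the inducible microsomal PGE2 synthase, averaged 624 ± 202 counts (SD, n = 3) in vehicle and 686 ± 269 in fulvestrant, a difference of 0.11 (SE 0.10, limma adjusted p = 0.554). Ptges2, a second membrane-associated form, averaged 437 ± 31.3 and 505 ± 58.0 (difference 0.20, adjusted p = 0.335). Ptges3, the cytosolic form also known as the Hsp90 co-chaperone p23, averaged 6808 ± 968 and 7878 ± 1771 (difference 0.19, adjusted p = 0.259). Reads that also align to a named pseudogene, Ptges3-ps, would be left out by the default counting, so its level is uncertain. Ptges2 and Ptges3 were higher with fulvestrant in all 3 pairs, and 45.1% of all genes had all 3 pairs on one side. Beside the call of Ptges3 given above, leaving out replicate 1 brought a call of Ptges2 in E2 plus fulvestrant against vehicle (difference 0.33, limma adjusted p = 0.0252, against 0.366 with all 3), when 16.3% of all genes were called.

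Ptgis, prostacyclin synthase, hardly varied, with group means from 3062 to 3320.0 counts and differences between -0.12 and 0.07 over the 5 contrasts. Ptger4, the EP4 receptor for PGE2, averaged 325 ± 102 in vehicle, 310.3 ± 76.9 with E2, 376 ± 61.4 with E2 plus fulvestrant and 332 ± 81.8 with fulvestrant. Its largest difference from vehicle, 0.25 with E2 plus fulvestrant (SE 0.12, limma adjusted p = 0.204), came mostly from replicate 1, at 0.56. Exons of Ttc33 and Gm15937 on the opposite strand cover 16.5% of the Ptger4 exon bases, and the counting used strand.

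Per kilobase of exon, Slco2a1 was the lowest of the 9 in every group and Ptges3 the highest. In vehicle, Ptges3 had 3071 ± 437 normalized counts per kilobase, Ptgis 1228 ± 83.2 and Ptgs2 1104 ± 776. Ptgs1 followed with 568 ± 141, then Ptges with 159 ± 51.4, Abcc4 with 133 ± 9.98, Ptges2 with 86.5 ± 6.18 and Ptger4 with 48.8 ± 15.3. Slco2a1 had 9.61 ± 4.58 per kilobase in vehicle and 30.0 ± 4.76 with E2. Ptgis and Ptgs2, Ptgs2 and Ptgs1, and Ptges and Abcc4 were neighbours whose means differed by less than the larger SD. The lengths are unions of all annotated exons, and the long Slco2a1 model of 13545 bases lowers its value.

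The replicate number moved some of these genes more than any treatment did. Ptgs2 was 7.37-fold higher in replicates 2 and 3 than in replicate 1 on average over the 4 groups, a difference that 0.605% of all genes matched or exceeded. In each group the replicate 1 sample was lower, with a log2 difference between -3.26 and -2.63. Ptges went the other way in all 4 groups and was 1.69-fold higher in replicate 1. Ptger4 (1.57-fold) and Ptgs1 (1.49-fold) were higher in replicates 2 and 3 in every group, while Abcc4 differed by only 1.06-fold, with replicate 1 lower in 2 of the 4 groups. Slco2a1 had no common order, with replicate 1 lowest in vehicle and E2 and highest in fulvestrant. These differences are within groups, and their origin was not tested.

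**Figure D3:**
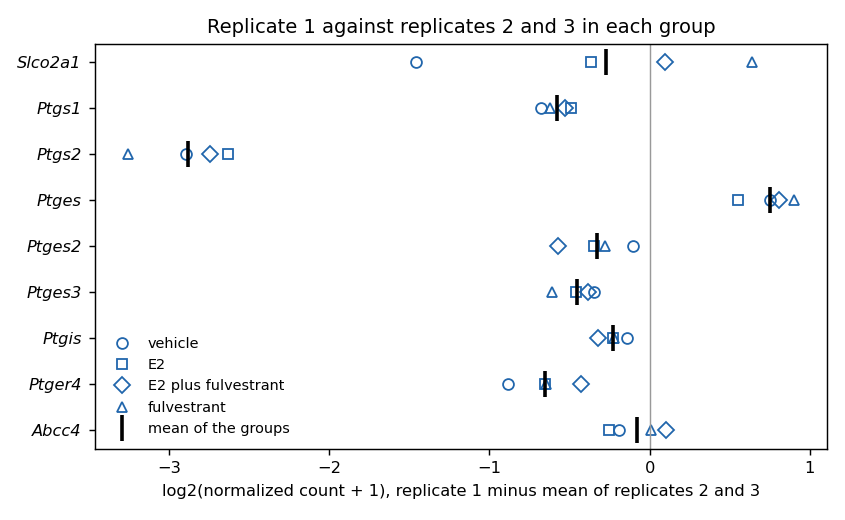
Replicate 1 minus the mean of replicates 2 and 3, in log2(normalized count + 1), for the 9 genes in each of the 4 groups (open symbols) with the mean of the groups (black mark). Ptgs2 is lower in replicate 1 in every group (mean -2.88), Ptges is higher (mean 0.75), and Slco2a1 changes sign between groups.

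Other genes of the pathway were read from lists covering arachidonate release, synthesis, receptors, breakdown, the lipoxygenase arm and the Slco and Abcc families. A last list held known inducers and feedback genes of Ptgs2 and EP receptor signalling. Of the 80 genes in all these lists 43 were listed. In fulvestrant against vehicle 9 of the 43 were called higher, 1 lower and 33 were not called, against 5.23% of all genes called and 2.74% called higher. Their median difference was 0.08, against 0.01 over all genes. None of the 43 was called without the replicate block, 2 without replicate 2, none without replicate 3 and 14 without replicate 1, where 16.7% of all genes were called. For the fits without replicate 2 or 3 no share of all genes is given, so their counts have no comparison. In E2 plus fulvestrant against vehicle 11 were higher and 3 lower (Mgll, Tbxa2r and Tnfaip3), while 12.2% of all genes were called and 6.72% called higher, and none of the 43 was called without the block. In E2 against vehicle, and in E2 plus fulvestrant against fulvestrant, none was called (limma).

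The genes that release arachidonate gave 1 call of 9 listed, Anxa1, whose product annexin A1 is an inhibitor of phospholipase A2 action. It was higher with fulvestrant by 0.75 (SE 0.11, limma adjusted p = 0.0141), and its groups did not overlap, as for 5.70% of all genes in that direction. Without the replicate block it was not called (adjusted p = 0.325). The cytosolic phospholipase gene Pla2g4a was not called, with vehicle samples at 4015 to 4760.0 counts and fulvestrant samples at 4119 to 4384. Among 6 further synthases and isomerases Akr1b8, an aldo-keto reductase, was higher by 0.41 (SE 0.08, adjusted p = 0.0368, and 0.770 without the block). Its close relative Akr1b3 is also listed, and since the counting by default leaves out reads that align to more than one place, reads alike in both would be missing from both.

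No other prostanoid receptor or partner passed in fulvestrant against vehicle, 0 of 7 listed in limma. The lowest were Ptgfr, the receptor for PGF2α, at -0.84 (adjusted p = 0.0767), and Tbxa2r, the thromboxane receptor, at -0.72 (adjusted p = 0.0570), both picked after their values were seen. In E2 plus fulvestrant against vehicle, where 12.2% of all genes were called, 2 of the 7 were called (limma). Tbxa2r was lower at -0.77 (adjusted p = 0.0136) and the nuclear receptor gene Ppard higher at 0.30 (adjusted p = 0.0332). The groups of both genes overlapped. Tbxa2r was far higher in replicate 1, with 1109, 237.5 and 210.9 counts in vehicle and 504, 154 and 143 with E2 plus fulvestrant. Without replicate 1 both genes were also called in fulvestrant against vehicle (adjusted p = 0.0460 and 0.00866), where 16.7% of all genes were called. Neither was called in either comparison without the block. The breakdown genes gave none of 6. Hpgd, which starts prostaglandin breakdown after uptake through Slco2a1, was near the listing limit with 14.3 to 28.8 counts in vehicle and 19.6 to 30.8 with fulvestrant. The lipoxygenase arm gave none of 2, and the other 13 of its genes were not listed.

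Of the further transporter genes, 1 of 1 listed in the Slco family and 1 of 3 in the Abcc family were called higher with fulvestrant. Of all genes 5.23% were called in that comparison and 2.74% were called higher. With so few genes listed, nothing is said about either family as a whole. Slco3a1, another organic anion transporter able to carry prostaglandins and the 1 of 7 further Slco genes listed, rose by 0.53 (SE 0.10, limma adjusted p = 0.0334, and 0.638 without the replicate block). Its vehicle samples had 611, 539 and 597 counts and its fulvestrant samples 1021, 723 and 796, without overlap, as for 5.70% of all genes in that direction. Abcc1, the exporter MRP1, rose by 0.65 (SE 0.09, adjusted p = 0.0114, and 0.978 without the block), from 1934, 4421 and 4597 counts to 2637, 7638 and 7526. The Abcc1 groups overlapped, and replicate 1 was far lower in both. Of the 3 further Abcc genes listed, Abcc5 and Abcc10 were not called. Slco2a1 itself was not called in this comparison.

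Of the 9 listed genes among known inducers and feedback genes of Ptgs2 and EP receptor signalling, 5 were called higher with fulvestrant and 1 lower. Of all genes 5.23% were called and 2.74% were called higher. The list was chosen with earlier results of these data known, so this count is a description only. None of the 9 was called without the replicate block. Dusp1, a phosphatase that switches off MAP kinases, was higher by 1.38 (SE 0.23, limma adjusted p = 0.0209). It had 196, 1586 and 1472 counts in vehicle and 892, 2895 and 3135 with fulvestrant, and its groups overlapped. Without replicate 1 the Dusp1 difference was 0.98. Fosl1, a subunit of the transcription factor AP-1, was higher by 1.21 (SE 0.10, adjusted p = 0.00296), and Egr1, an immediate early transcription factor, by 0.64 (SE 0.13, adjusted p = 0.0441). Egr1 had 1512, 6936 and 7230 counts in vehicle and 3174, 9686 and 9318 with fulvestrant, far lower in replicate 1, and without that replicate number its difference was 0.42. The others called were Zfp36 and Cebpb, higher, and Tnfaip3, lower at -0.53, named here because few genes of the list were called. Fosl1 had 109, 1099 and 1089 counts in vehicle and 224, 2780.0 and 2601 with fulvestrant. Like Ptgs2, it was far lower in replicate 1 of both groups. Exons of Ccdc85b on the opposite strand cover 57.2% of the Fosl1 exon bases.

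**Figure D4:**
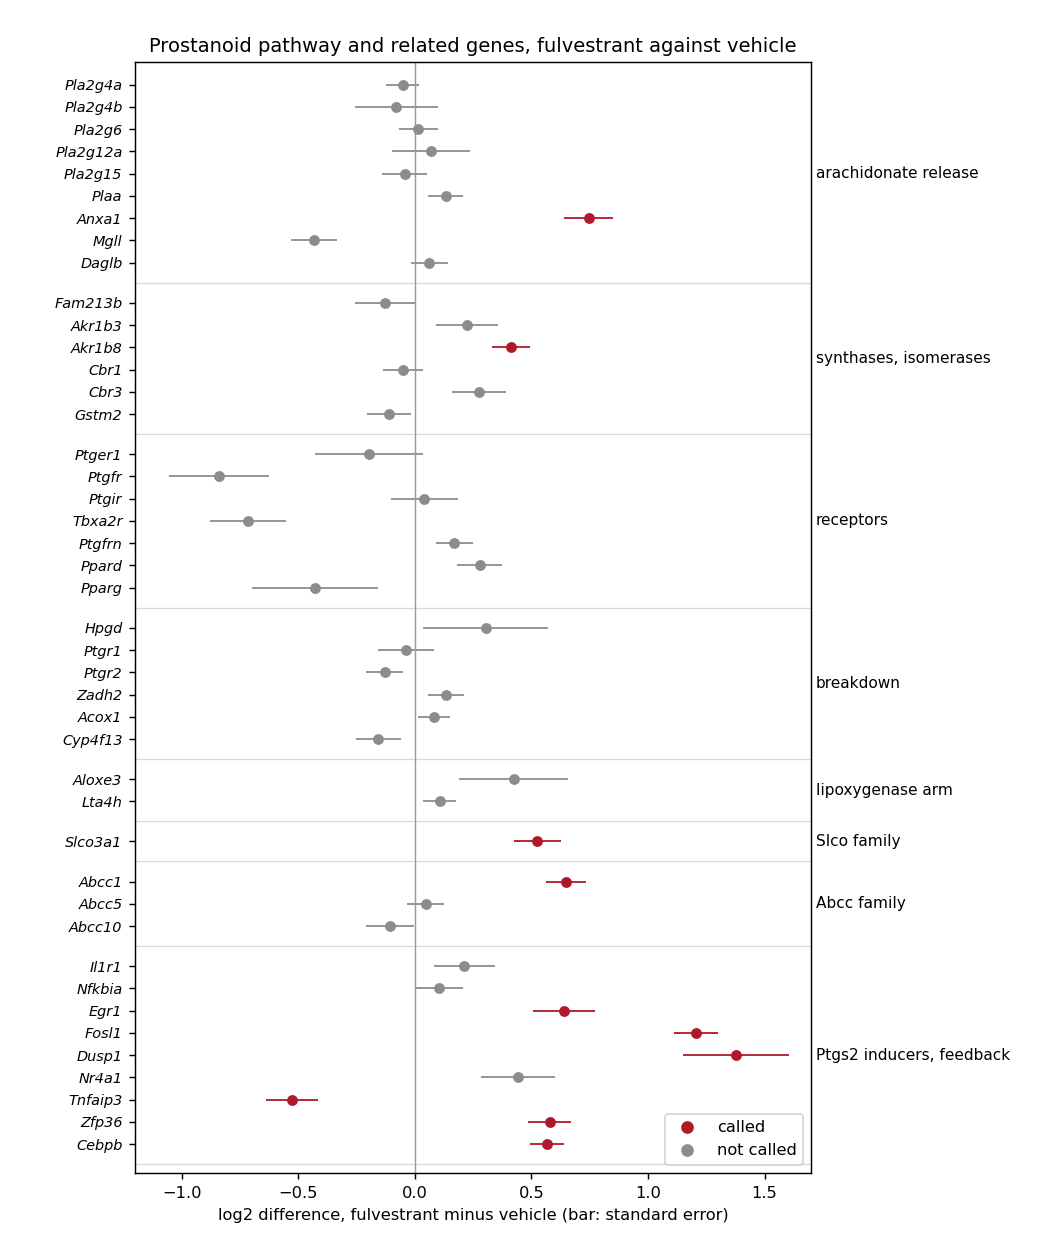
Log2 difference of fulvestrant minus vehicle (bars: SE) for the 43 listed pathway genes, grouped by list, with the 10 called in red. The calls lie mostly among the inducers and feedback genes of Ptgs2 and EP receptor signalling (6 of 9 listed), a list chosen with earlier results of these data known. Other calls include the transporters Slco3a1 and Abcc1, and none lies among receptors, breakdown or lipoxygenase genes.

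Over the 12 samples, after the mean of each replicate number was subtracted, the genes most like Slco2a1 by Pearson's r were Qpct (0.96), Samd5 (0.96), Alkbh7 (0.95), Palld (0.95) and Gpsm2 (0.95). Qpct had group means of 446 ± 74.6 in vehicle, 1162 ± 121 with E2, 380.4 ± 13.8 with E2 plus fulvestrant and 320 ± 33.6 with fulvestrant, the order of group means that Slco2a1 had. The least like were Iqgap2 (-0.95), Nupl1 (-0.95) and Nes (-0.94). Of the other 8 genes, Ptgs2 had the lowest r with Slco2a1 (-0.70) and Ptges the highest (0.43) after this centring, whereas without it Abcc4 had the lowest (-0.42), Ptgs2 had -0.10 and Ptges 0.00. Ptgs1 and Ptgs2 had an r of 0.95 after centring, Ptgs1 and Abcc4 of 0.93, and Ptgs2 and Abcc4 of 0.88. These are descriptions over 12 samples that share 4 treatments, and the extremes were picked among all genes. They depend on the centring: without it r was 0.96 for Qpct and 0.95 for Palld, but 0.85 for Alkbh7, 0.77 for Gpsm2, 0.57 for Samd5, -0.71 for Iqgap2, -0.61 for Nupl1 and -0.03 for Nes.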

How the data were processed

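RNA-Seq libraries of 12 HAF samples (4 groups of 3) were made after ribosomal RNA removal. The authors trimmed reads with Trimmomatic 0.39, aligned them to mm10 with STAR 2.5.2, counted them by strand with HTSeq 0.13.5 and normalized them with DESeq2 1.37. The deposited values are a signal: gene counts divided by a size factor per sample, for genes with at least 10 reads. Multiplied back, every value came within 0.01 of a whole read. Groups and replicate numbers came from the labels.

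Differences were fitted with limma 3.58.1 (R 4.3.3) on log2(value + 1) across all 13233 genes, using the 2 groups compared (all 12 samples for the interaction), with the replicate number as a block and Benjamini-Hochberg adjustment. Calls required an adjusted p under 0.05 and a fold over 1.2. The fit was tested on simulated counts that had a separate mean for each replicate number and 1 dispersion for all genes. The block was thus true by construction there, and its choice was not tested. The block was taken because the study adjusts for batches and the numbers are shared by all groups. Deviations set replicate 1 apart (mean correlation 0.879 within it) but gave no sign that numbers 2 and 3 pair samples (mean 0.707 within these numbers, 0.714 between them), so a block of 2 levels was added after seeing the data. The main block of 3 levels was itself chosen when the counts of calls with and without it were already known, so both are given. The members and lists were likewise chosen with earlier results of these data known.

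Named pathway genes were up to 3 called genes per list with the largest differences, and named like genes the 5 highest and 3 lowest correlations. Exons and positions came from the GENCODE annotation of GRCm38, promoters from RefSeq GRCm38.p6. Alternatives were no block, pseudocounts of 5 and 0.1, a mean of at least 100, all 12 samples, no variance trend, total-count and quantile scaling, each replicate number left out, and adjusted p alone. One further marker list is not reported here.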

Additional observations from a re-analysis of the deposited data

How the results depend on the processing

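The replicate block decided the calls. Without it the members called fell from 3 to 0 in fulvestrant against vehicle and in E2 plus fulvestrant against vehicle, and the pathway genes called in the former from 10 to 0. With the block of 2 levels, chosen after seeing the data, 3 members were called in each of these comparisons and 13 pathway genes in the former, and the calls of all genes in the former went from 692 to 1360. Without a variance trend those in fulvestrant against vehicle were 0 members and 1 pathway gene, and Abcc4 was no longer called in E2 plus fulvestrant against vehicle. With 1 replicate number left out in turn, 0 to 5 members and 0 to 14 pathway genes were called there, and Slco2a1 ranged from -1.21 (called) to -0.040. With 2 pairs the residual degrees of freedom are fewer. The members called kept their counts with both pseudocounts, the higher mean, all 12 samples, total-count and quantile scaling and adjusted p alone. Slco2a1 in E2 minus E2 plus fulvestrant was 1.91 with total-count scaling, where values are smaller and a pseudocount of 1 weighs more.

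Differences near 0 changed sign. With total-count scaling these were -0.026 for Ptgs2 and -0.029 for Ptgis in E2 against vehicle, -0.0081 for Ptges in E2 plus fulvestrant against vehicle, and 0.018 for the Ptgs2 interaction. With quantile scaling they were -0.039 for Ptgs2 and -0.022 for Ptgis in E2 against vehicle, and 0.026 for the Ptgs2 interaction. With a replicate number left out, those that changed sign had these lowest and highest values. In fulvestrant against vehicle, Ptgis ran from -0.013 to 0.13 and Ptger4 from -0.025 to 0.14. In E2 against vehicle, Ptgs2 ran from -0.082 to 0.070, Ptgis from -0.020 to 0.031 and Ptger4 from -0.12 to 0.020. In E2 plus fulvestrant against vehicle, Ptgis ran from -0.099 to 0.014. In E2 plus fulvestrant against fulvestrant, Slco2a1 (not tested) ran from -0.063 to 0.24, Ptgs1 from -0.0049 to 0.070, Ptgs2 from -0.17 to 0.089, Ptges2 from -0.11 to 0.067 and Ptges3 from -0.090 to 0.030. The Ptgs2 interaction ran from -0.090 to 0.058. Without centring on the replicate number, r with Slco2a1 moved for 6 of the 8 genes named as most or least like it. The cause was not tested. Tests on counts with edgeR or DESeq2 were planned and not run, because the table starts at 10 reads and the recovered reads could not be checked at lower values.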
